A study of Homo sapiens with 12 samples.

Results

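The genes EFR3B, DPYSL3, L1CAM, MAP1A, BAIAP3, SYP, YPEL1, MAFA, CAPN5 and C14orf37 were selected on their large rises with JQ1 in all 3 cell lines of the study, and they make up 10 of the 28512 named genes in the files. Several of them are best known from neurons, and all 10 were among the 14232 genes with a mean value of at least 10 that entered the tests. The lines SUM159, MDAMB231 and HCC1806 derive from breast carcinomas that lack hormone receptors and HER2 amplification (triple-negative). Their polyadenylated RNA was read after 72 h in 4 conditions: vehicle (DMSO), JQ1, GSK2801, and both inhibitors. JQ1 was used at 300 nM in SUM159, 100 nM in MDAMB231 and 500 nM in HCC1806, and GSK2801 at 10 µM in every line. HCC1806 was also grown in RPMI with serum, whereas the other lines had DMEM/F12 with serum, insulin and hydrocortisone, so that effects of line, medium and dose of JQ1 cannot be told apart. Each line and treatment had 1 library, which makes n = 3 lines per treatment and leaves no replicate culture within a line.

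JQ1 occupies the acetyl-lysine pocket of the bromodomains in BET proteins, which bind acetylated histones at enhancers and promoters and help RNA polymerase II to elongate. GSK2801 occupies the bromodomain of BAZ2A and BAZ2B, which are subunits of chromatin remodelling complexes. Many neuronal genes are kept silent in epithelial cells by the repressor REST, which binds DNA near them and brings in corepressors that remove activating histone marks. Among the genes described here, EFR3B anchors a lipid kinase at the plasma membrane, DPYSL3 and MAP1A belong to the neuronal cytoskeleton, L1CAM is an adhesion molecule of growing axons, and BAIAP3 and SYP belong to the machinery of secretory and synaptic vesicles. MAFA is a transcription factor that activates the insulin gene in pancreatic beta cells, CAPN5 is a calcium-dependent cysteine protease, and YPEL1 is a small zinc-binding protein. C14orf37, now named ARMH4, is a membrane protein gene whose role is less well known.

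The sequences just upstream of the transcription start are shown for 3 of the genes, because the rise with JQ1 is a difference in RNA level and these genes moved together in the data. They come from RefSeq on GRCh38.p14, read 5′ to 3′ on the gene's own strand, and leave out any base that falls in an annotated exon. Capitals mark GC boxes, the motif GGGCGG on either strand, where overlapping matches were counted separately. EFR3B (chr2:25041826-25042075, plus strand) holds 4 of them, MAP1A (chr15:43510729-43510953, plus strand) holds 2, and DPYSL3 (chr5:147510069-147510318, minus strand) holds 0.
EFR3B: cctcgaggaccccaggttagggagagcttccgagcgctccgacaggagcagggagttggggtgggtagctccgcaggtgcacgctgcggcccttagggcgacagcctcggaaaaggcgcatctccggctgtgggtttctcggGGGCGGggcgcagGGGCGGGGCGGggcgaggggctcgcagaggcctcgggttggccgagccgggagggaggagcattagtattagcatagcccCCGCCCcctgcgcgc
MAP1A: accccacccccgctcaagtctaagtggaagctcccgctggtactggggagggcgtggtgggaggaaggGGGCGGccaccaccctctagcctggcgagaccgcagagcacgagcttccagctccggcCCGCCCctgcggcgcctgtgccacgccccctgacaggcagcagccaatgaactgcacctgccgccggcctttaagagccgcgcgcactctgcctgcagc
DPYSL3: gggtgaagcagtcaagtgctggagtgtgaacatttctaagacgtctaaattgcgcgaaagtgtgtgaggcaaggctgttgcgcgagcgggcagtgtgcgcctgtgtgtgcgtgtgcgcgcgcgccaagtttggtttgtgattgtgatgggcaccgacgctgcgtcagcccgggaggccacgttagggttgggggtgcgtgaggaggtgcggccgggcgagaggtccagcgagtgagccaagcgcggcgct
Promoters of 7 of the 10 genes were searched. YPEL1 and CAPN5 had no RefSeq promoter entry that was used, and MAFA was left out without a look for its entry. In the 250 bases before the first listed start, a GC box was found in 6 of the 7, compared with 42.3% of 27305 promoters of the same length. The window was rich in G and C, with a median of 70.4% and 25 CpG dinucleotides, against medians of 58.0% and 11 over all promoters. No share of GC boxes was computed among promoters of like G and C content, so the difference is not read as enrichment. The windows of L1CAM and C14orf37 lie inside the spans that the GENCODE v29 annotation gives these genes. The sequence CACCTG, searched on both strands, was found in 4 of the 7 and in 17.5% of all promoters, and CACGTG in 0 and 6.49%. CCAAT occurred in 2 of the 7 against 33.0%, and TATAAA in 0 against 11.1%. These matches describe the letters of the windows and are neither binding sites nor causes.

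The libraries held 24200000 to 46800000 estimated reads. In such bulk RNA, fewer cells that use a gene and less of its RNA per cell cannot be told apart. Values are the deposited normalised signal, that is estimated reads scaled by the authors so that every library has the same upper quartile. Differences are on the log2(value + 1) scale, and a fold is its antilog, which understates the change of genes near 0. The breast epithelial labels were checked on marker genes: KRT18, an epithelial keratin gene, stood at 5482, 13513 and 41297 in the DMSO libraries of SUM159, MDAMB231 and HCC1806. KRT8 followed it at 1332, 2962 and 7880, but KRT19, also an epithelial keratin gene, stood at 18.8, 3868 and 15838. The basal keratin gene KRT5 stood at 91.8, 2.90 and 32771 in the same order, and the mesenchymal gene VIM at 91350, 93281 and 77.0. The basal keratin genes KRT14 and KRT17 were far lower than KRT5 in HCC1806, at 57.1 and 167. The epithelial genes EPCAM and CDH1 stood at 4.69 and 30.5 in SUM159, 375 and 13.6 in MDAMB231, and 14289 and 14154 in HCC1806, so 2 of the 3 lines were low in CDH1. Of the receptor genes behind the triple-negative label, PGR did not exceed 12.1 in any library and ESR1 did not exceed 12.9 outside HCC1806, where it stood at 102 to 138. ERBB2 stood at 1749 to 6456 over the 12 libraries, and receptor protein was not measured in these files.

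With DMSO, most of the 10 genes were near the limit of detection in at least 1 line. Of the 30 gene and line pairs, 9 had 10 or fewer estimated reads in the DMSO library. Per kilobase of merged exons, the median DMSO value over the lines was lowest for C14orf37 (1.06), YPEL1 (1.52), EFR3B (1.66) and MAFA (1.81), and higher for SYP (2.66), MAP1A (4.22), DPYSL3 (4.42), BAIAP3 (6.34), CAPN5 (8.57) and L1CAM (15.3). With JQ1 the same quantity was lowest for SYP (6.30) and highest for L1CAM (419), with EFR3B at 68.7, CAPN5 at 121 and DPYSL3 at 129. The lines disagreed most about L1CAM, whose DMSO values spanned a 677-fold range, and about C14orf37, with a 40.6-fold range. SYP was the most even, with a 1.36-fold range. For every gene but SYP the range over the lines, 3.23-fold or more, was wider than the step to its neighbours in the per-kilobase order, so neighbours in that order are not separated.

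**Figure D1:**
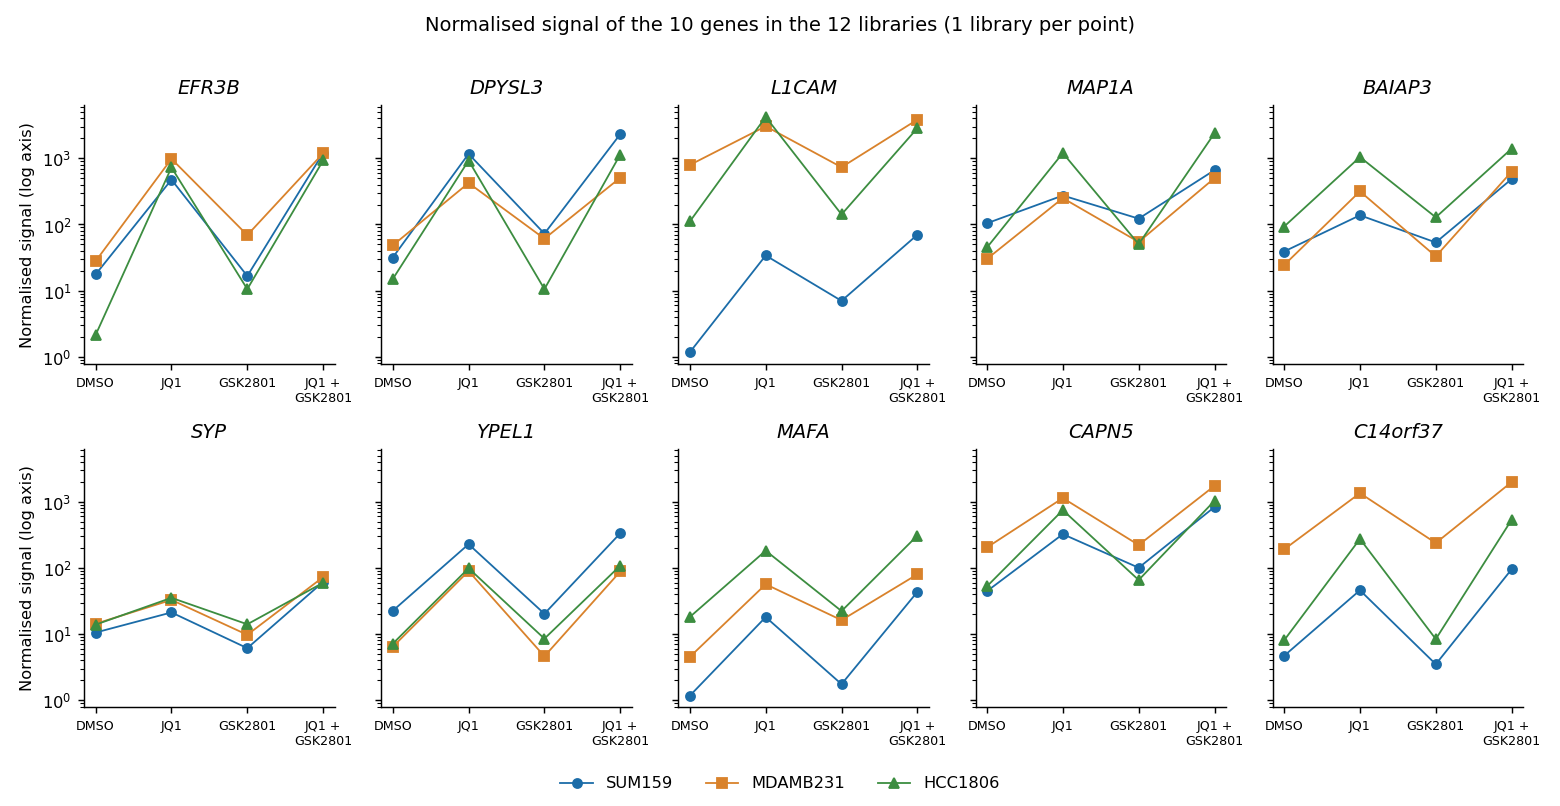
Normalised signal (log axis) of each of the 10 genes under the 4 treatments, with 1 library per point and lines joining the libraries of a cell line, which do not stand for a time course. In every panel the libraries with JQ1 lie above the libraries of the same line without it, and GSK2801 alone lies nearer to DMSO than JQ1 does. GSK2801 alone still reached 3.68-fold on the log2(value + 1) scale for L1CAM in SUM159 and for EFR3B in HCC1806. MAFA reached 3.12-fold in MDAMB231, and DPYSL3 (2.26-fold) and CAPN5 (2.23-fold) were higher in SUM159. L1CAM with DMSO stands at 1.17 in SUM159 and at 794 in MDAMB231.

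The rises with JQ1 chose these genes and are therefore given as a description with no test. All 10 were higher with JQ1 than with DMSO in all 3 lines, as were 21.7% of the 14232 tested genes. By limma 9.52% of the tested genes were called higher in that comparison. The median over the 10 genes was 3.09 on the log2 scale in SUM159, 3.06 in MDAMB231 and 4.26 in HCC1806, where the medians of all tested genes were −0.12, −0.03 and 0.01. HCC1806 gave the largest rise for 8 of the 10 and MDAMB231 for the other 2. The like share over all tested genes was not computed. Of all tested genes, 10.9% rose at least 2-fold with JQ1 in HCC1806, 8.78% in MDAMB231 and 4.43% in SUM159. The count is therefore not read as a trait of the 10 genes. Over the mean of the lines the median rise was 3.38 with JQ1 and 4.06 with the combination. Ranked by the smallest of the 3 line rises, EFR3B was at place 1 of all tested genes, YPEL1 at 2, MAFA at 3, DPYSL3 at 4, C14orf37 at 6 and CAPN5 at 7. L1CAM was at 26, BAIAP3 at 32, MAP1A at 79 and SYP at 219. The choice thus did not follow a strict size limit: 22 genes were higher by at least 2 on this scale in every line, 6 of them in the list. The highest-ranked genes not in the list stood above several of its members. They were the histone genes HIST2H4B (place 5, smallest line rise 2.90) and HIST1H2BD (place 11, 2.36). TMEM191C (place 8, 2.39), ROPN1L (place 9, 2.39) and IQUB (place 10, 2.39) lay between them.

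The largest mean rise with JQ1 of the 10 was that of EFR3B (5.88 on the log2 scale). EFR3B, whose product is a palmitoylated scaffold that brings the lipid kinase PI4KA to the membrane, had values of 17.6 with DMSO, 476 with JQ1, 16.6 with GSK2801 and 1204 with both in SUM159. In MDAMB231 the same values were 27.9, 981, 69.0 and 1191, and in HCC1806 they were 2.14, 728, 10.5 and 927. All 6 libraries with JQ1 lay far above all 6 without it, and the lines were closer to each other with JQ1 (a 2.06-fold range) than with DMSO (a 13.1-fold range). The rise with JQ1 was 25.7-fold in SUM159, 34.0-fold in MDAMB231 and 232-fold in HCC1806. The last rests on 2 estimated reads in the DMSO library against 639 with JQ1, and the ratio of these reads, scaled, was 341 with an exact 95% interval of 93.9 to 2819 that covers counting error only. EFR3B lies on chromosome 2 (25042130 to 25159137, plus strand).

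DPYSL3, also called CRMP4, is a phosphoprotein of axonal growth cones that binds actin and microtubules. Its values in the order DMSO, JQ1, GSK2801 and both were 31.6, 1166, 72.6 and 2319 in SUM159, and 48.2, 424, 60.9 and 509 in MDAMB231. In HCC1806 they were 15.0, 925, 10.5 and 1140. The JQ1 libraries did not overlap those without JQ1, although MDAMB231 reached a lower level than the other lines. The rise was 35.8-fold in SUM159, 8.63-fold in MDAMB231 and 58.0-fold in HCC1806. DPYSL3 lies on chromosome 5 (147390811 to 147510056, minus strand).

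MAP1A, which binds and stabilises microtubules in dendrites and axons, had values of 104 with DMSO, 274 with JQ1, 122 with GSK2801 and 662 with both in SUM159. In MDAMB231 these values were 30.1, 250, 54.4 and 502, and in HCC1806 44.9, 1202, 50.4 and 2394. The libraries with JQ1 stood above all those without it, and HCC1806 reached the highest level. The rise with JQ1 ran from 2.61-fold in SUM159 through 8.06-fold in MDAMB231 to 26.2-fold in HCC1806. MAP1A lies on chromosome 15 (43510958 to 43531620, plus strand).

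L1CAM is an immunoglobulin-family adhesion molecule that guides axons and is also found on many carcinomas. It had values of 1.17, 34.0, 6.999 and 69.9 in SUM159 with DMSO, JQ1, GSK2801 and both, and 794, 3049, 733 and 3845 in MDAMB231. In HCC1806 they were 111, 4215, 142 and 2855. The groups overlapped over the lines, since MDAMB231 without JQ1 was above SUM159 with it, but within each line every library with JQ1 was above those without it. The rise with JQ1 was 16.1-fold in SUM159, 3.84-fold in MDAMB231 and 37.6-fold in HCC1806. In SUM159 it came from 1 estimated read against 32, a scaled ratio of 28.998 with an exact interval of 4.84 to 1181. L1CAM lies on chromosome X (153861514 to 153886174, minus strand).

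The vesicle genes of the list were BAIAP3 and SYP. BAIAP3, a relative of the UNC13 priming factors that acts in the release of dense-core vesicles, had values of 39.0, 138, 53.5 and 486 in SUM159, in the order DMSO, JQ1, GSK2801 and both. In MDAMB231 they were 24.3, 317, 33.0 and 628, and in HCC1806 92.9, 1045, 128 and 1399. The libraries with JQ1 did not overlap those without it. BAIAP3 was 3.47-fold, 12.5-fold and 11.1-fold higher with JQ1 in SUM159, MDAMB231 and HCC1806, and SUM159 had the smallest rise. It lies on chromosome 16 (1333601 to 1349441, plus strand), where 3.29% of its exon bases are shared with TSR3 on the other strand.

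SYP encodes synaptophysin, a membrane protein of synaptic vesicles that pathologists stain as a marker of neuroendocrine cells. It had values of 10.5 with DMSO, 21.2 with JQ1, 6.12 with GSK2801 and 61.4 with both in SUM159. In MDAMB231 they were 14.3, 32.9, 9.74 and 72.7, and in HCC1806 13.9, 35.3, 14.1 and 59.7. SYP was the weakest of the 10 with JQ1 alone, at 1.93-fold, 2.21-fold and 2.44-fold. Its 3 levels did not overlap: each library without JQ1 was below each with JQ1 alone, and these were below each combination library. The lower gap was narrow, from 14.3 (MDAMB231 with DMSO, 19 estimated reads) to 21.2 (SUM159 with JQ1, 20 estimated reads). It also uses the values that chose the gene, and nothing is read from it. SYP was the only gene of the 10 whose combination libraries were all above all JQ1 libraries over the lines, which held for 1.00% of tested genes. Its levels remained low throughout, with a mean of 29.3 over the 12 libraries. It lies on chromosome X (49187804 to 49200259, minus strand).

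YPEL1, MAFA and SYP had the narrowest ranges of the JQ1 rise over the lines, at 0.33, 0.25 and 0.34 on the log2(value + 1) scale, and at 0.46, 0.62 and 0.34 with no pseudocount. YPEL1, a zinc-binding protein of the Yippee-like family, had values of 22.5, 228, 20.3 and 334 in SUM159 with DMSO, JQ1, GSK2801 and both. In MDAMB231 they were 6.41, 89.6, 4.61 and 88.3, and in HCC1806 7.15, 99.0, 8.52 and 108. Libraries with and without JQ1 did not overlap, and the rise was 9.77-fold, 12.2-fold and 12.3-fold. YPEL1 lies on chromosome 22 (21697544 to 21735834, minus strand), and 52.5% of its exon bases are shared with PPIL2 on the other strand. The labels disagree on a stranded kit, so reads of these genes may not have been told apart. PPIL2 itself differed between JQ1 and DMSO by 0.04, 0.26 and 0.54 on the log2 scale in SUM159, MDAMB231 and HCC1806.

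MAFA had values of 1.17, 18.1, 1.75 and 43.5 in SUM159, 4.52, 56.6, 16.2 and 80.0 in MDAMB231, and 18.2, 182, 22.3 and 308 in HCC1806, in the same order of treatments. Within each line the JQ1 libraries were above the others, but over the lines they overlapped, because HCC1806 without JQ1 reached the level of SUM159 with it. The rises were 8.77-fold, 10.4-fold and 9.56-fold, and that of SUM159 came from 1 estimated read against 17, with an exact interval of 2.41 to 644 on the scaled ratio.

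CAPN5, a calpain without the calmodulin-like domain of the classical members, had values of 44.5, 324, 101 and 834 in SUM159 with DMSO, JQ1, GSK2801 and both. In MDAMB231 they were 204, 1139, 222 and 1741, and in HCC1806 52.8, 748, 65.6 and 1034. The libraries with JQ1 were above all those without it, and the rises were 7.14-fold, 5.56-fold and 13.9-fold. C14orf37 had values of 4.69, 46.0, 3.499 and 95.4 in SUM159, 191, 1350, 238 and 1987 in MDAMB231, and 8.05, 274, 8.40 and 534 in HCC1806. Its levels overlapped over the lines through the high background of MDAMB231, and its rises were 8.26-fold, 7.06-fold and 30.4-fold. Counted over the 10 genes, 7 had every library with JQ1 above every library without it, against 2.02% of the tested genes, and L1CAM, MAFA and C14orf37 did not. This count follows from the choice of the genes in part, and nothing is read from it.

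**Figure D2:**
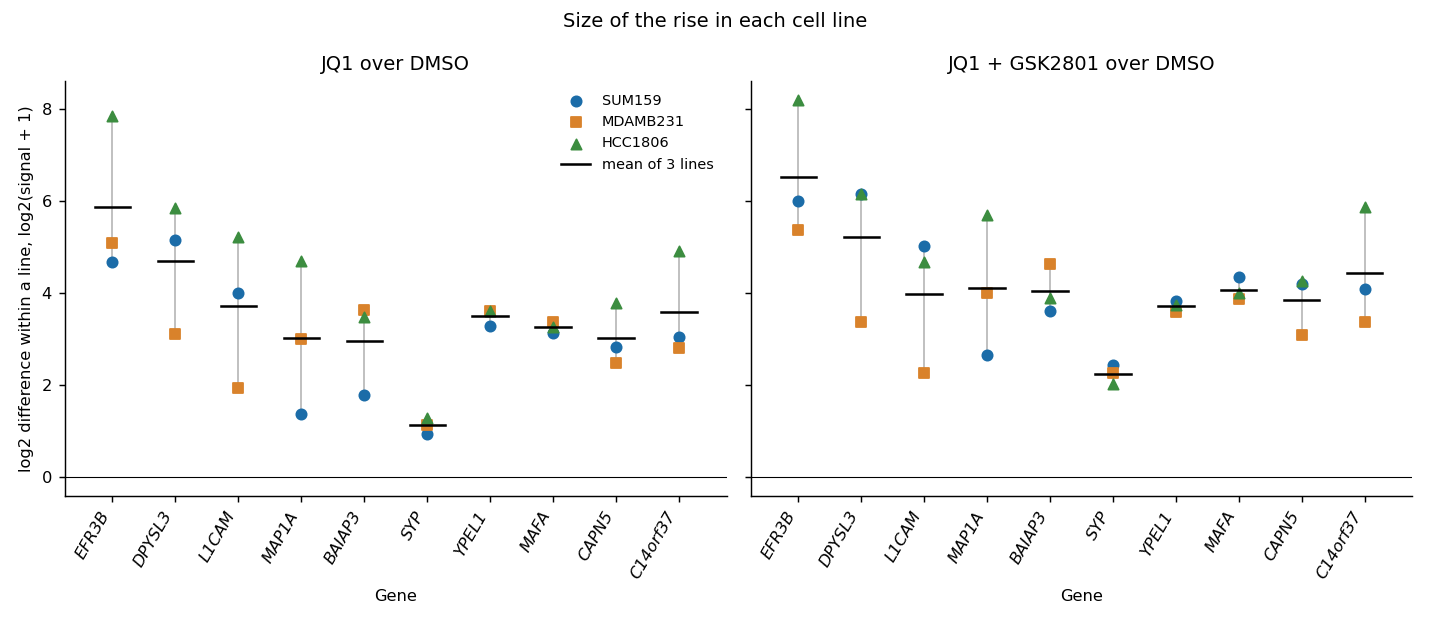
Log2 difference from DMSO within each line for JQ1 (left) and for the combination (right), with coloured points for the lines and a black bar for their mean. EFR3B spans 4.68 to 7.86 with JQ1, whereas YPEL1 spans 3.29 to 3.62 and MAFA 3.13 to 3.38, and in the right panel SUM159 has moved up most.

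What JQ1 did in the presence of GSK2801 was tested with the combination against GSK2801, a pair of library groups that the selection did not name. The genes were proposed with results of the combination in view, so the test is not free of the choice. In the same fit 0 genes were called for GSK2801 against DMSO and 0 for the combination against JQ1. A pass here therefore largely repeats the rise with JQ1 that chose the genes and is not separate support for it. All 10 were higher with the combination in all 3 lines, and all 10 passed (limma, Benjamini-Hochberg over all tested genes), against 11.8% of tested genes higher and 17.2% lower. The median over the 10 was 3.66 on the log2 scale, with −0.10 over all tested genes. EFR3B rose 45.4-fold (5.50 ± 0.61, SE of the fit to all 12 libraries, n = 3 lines, limma adjusted p = 6.7e-04) and DPYSL3 29.5-fold (4.88 ± 0.68). YPEL1 rose 14.2-fold with the smallest error (3.83 ± 0.25, limma adjusted p = 2.3e-04). C14orf37 (4.44 ± 0.52), MAP1A (3.72 ± 0.65), BAIAP3 (3.60 ± 0.37), MAFA (3.33 ± 0.37), CAPN5 (3.32 ± 0.33), L1CAM (3.29 ± 0.63) and SYP (2.64 ± 0.29) rose as well. The largest adjusted p was that of L1CAM, at 0.0057. The SE of the fit also draws on the DMSO and JQ1 libraries, so it is not the SE of the 3 line differences. The SD of these differences was 1.79 for DPYSL3, 1.63 for MAP1A, 1.39 for C14orf37 and 0.27 for YPEL1. Without the line as a block 0 of the 10 passed (limma adjusted p = 0.0759 to 0.951), and these p-values measure the spread between lines, not between cultures.

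GSK2801 added to JQ1 gave higher values for 8 of the 10 genes in all 3 lines, beside 21.7% of all tested genes. The exceptions were L1CAM in HCC1806 (−0.56) and YPEL1 in MDAMB231 (−0.02). The addition was largest in SUM159 for all 10 genes, and for 34.9% of all tested genes. There its median was 1.25 on the log2 scale, against 0.52 in MDAMB231 and 0.44 in HCC1806, while the medians of all tested genes were 0.01, 0.02 and −0.03. MAP1A was 2.41-fold, 2.003-fold and 1.99-fold higher than with JQ1 alone in SUM159, MDAMB231 and HCC1806, and SYP 2.81-fold, 2.18-fold and 1.67-fold. BAIAP3 (3.51-fold, 1.98-fold and 1.34-fold), EFR3B (2.53-fold, 1.21-fold and 1.27-fold) and DPYSL3 (1.99-fold, 1.201-fold and 1.23-fold) differed more between the lines. Each of these steps rests on the single JQ1 library of its line, which the rise with JQ1 uses as well.

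None of these additions passed in the model that was fixed for the test: 0 of the 10 genes, and 0% of the 14232 tested, had a limma adjusted p below 0.05, with 3 of the 10 and 1031 of all at an unadjusted p below 0.05. The differences were 1.12 ± 0.29 for SYP (unadjusted p = 0.0040, limma adjusted p = 0.473), 1.09 ± 0.65 for MAP1A, 1.07 ± 0.37 for BAIAP3, 0.85 ± 0.52 for C14orf37, 0.82 ± 0.37 for MAFA and 0.81 ± 0.33 for CAPN5. EFR3B (0.65 ± 0.61), DPYSL3 (0.52 ± 0.68), L1CAM (0.26 ± 0.63) and YPEL1 (0.22 ± 0.25) were closer to 0. The 95% intervals were wide, from −0.38 to 2.56 for MAP1A and from −0.72 to 2.03 for EFR3B, so they do not show that GSK2801 left these genes as they were. In that model the spread between lines of the JQ1 rise enters the error. In a fit that gave each line its own JQ1 effect, 4 of the 10 passed (MAP1A, limma adjusted p = 0.0172, BAIAP3, 0.0408, C14orf37, 0.0446, and SYP, 0.0495), against 2.89% of tested genes called higher. The JQ1 libraries were picked as high for these genes, which works toward a smaller difference, but the genes were also proposed with combination results in view, which works toward a larger one.

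**Figure D3:**
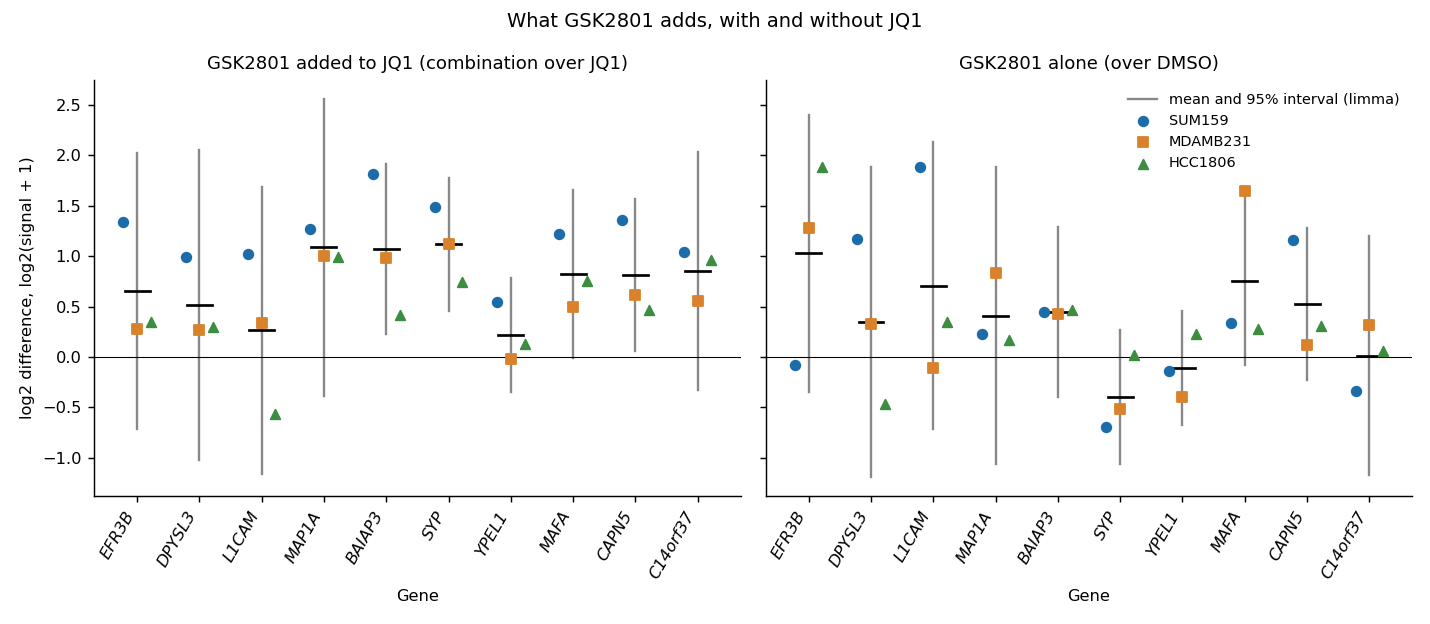
Log2 difference made by GSK2801 on top of JQ1 (left) and alone (right), with a point for each line, a black bar for the mean and a grey line for the limma 95% interval. On the left the SUM159 point is the highest for all 10 genes and only L1CAM in HCC1806 lies clearly below 0. On the right the points scatter on both sides of 0 and every interval includes it.

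GSK2801 alone gave differences that were uneven over the lines for most of the 10 genes, and none of them passed. Compared with DMSO, 4 of the 10 were higher in all 3 lines, beside 19.7% of the tested genes, and these were MAP1A, BAIAP3, MAFA and CAPN5. In all, 0 of 10 genes and 0% of all tested had a limma adjusted p below 0.05, with 0 of the 10 and 161 of all below 0.05 unadjusted. BAIAP3 was the most even over the lines, at 0.45, 0.42 and 0.46 on the log2 scale in SUM159, MDAMB231 and HCC1806 (0.44 ± 0.37). EFR3B had the largest mean (1.03 ± 0.61), with −0.08, 1.28 and 1.88 in the lines, where the HCC1806 value stands on 2 estimated reads with DMSO. MAFA was at 0.75 ± 0.37, L1CAM at 0.70 ± 0.63, and SYP was lower in mean (−0.40 ± 0.29). The DMSO libraries were picked as low for these genes, a choice that works toward a larger difference.

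Whether both inhibitors together differed from the sum of their log2 effects was asked with the departure from additivity, which again uses the libraries of the selection. JQ1 libraries picked as high and DMSO libraries picked as low both work toward a smaller departure. Combination results in view work toward a larger one. No gene passed: 0 of 10, and 0% of all tested, with 1 of the 10 and 171 of all below 0.05 unadjusted in limma. That gene was SYP, at 1.51 ± 0.41 (unadjusted p = 0.0052, limma adjusted p = 1.00). It was lower with GSK2801 than with DMSO in 2 of the 3 lines, and higher with the combination than with JQ1 in 3 of 3. C14orf37 was at 0.84 ± 0.74, MAP1A at 0.68 ± 0.92 and BAIAP3 at 0.63 ± 0.53, and EFR3B (−0.37 ± 0.86) and L1CAM (−0.44 ± 0.89) were below 0. SYP aside, every 95% interval included 0.

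The relatives of the 10 genes were read in the combination against GSK2801, on lists of family and complex members. Over all tested genes 11.8% were called higher and 17.2% lower in this comparison. The lists are short, and nothing about a family is read from its count. The EFR3 proteins work with PI4KA, the TTC7 adaptors, the FAM126 proteins and TMEM150A, and of the 7 other genes of this complex 4 rose and 1 fell. TMEM150A rose by 1.09 ± 0.23, PI4KA by 0.80 ± 0.11, TTC7A by 0.60 ± 0.10 and EFR3A by 0.54 ± 0.08, while TTC7B fell by 0.84 ± 0.13. FAM126A (0.28) and FAM126B (0.19) did not pass. EFR3A, the widely expressed copy, thus differed by less than 1 on the log2 scale where EFR3B differed by 5.50.

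Of the 4 other tested genes of the CRMP family, 0 passed: DPYSL2 stood at 0.50 ± 0.28, DPYSL4 at 0.36 ± 0.34, CRMP1 at 0.35 ± 0.18 and DPYSL5 at 0.24 ± 0.34. The L1 family and its partners had 0 higher and 1 lower of 6. ANK2, which encodes an ankyrin that ties such adhesion molecules to the membrane skeleton, fell by 2.58 ± 0.50, with NFASC at −1.36 ± 0.50 and NCAM1 at 1.09 ± 0.53. Among 11 other microtubule and neuronal cytoskeleton genes, 3 rose and 0 fell. They were the neuronal tubulin gene TUBB3 (2.01 ± 0.41), MAP1B (1.25 ± 0.38) and MAP1S (0.43 ± 0.09).

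In the UNC13 and BAIAP3 family 2 of 5 rose and 0 fell. UNC13B, a vesicle priming factor, rose by 1.44 ± 0.16 and CADPS2, which acts in dense-core vesicle release, by 0.67 ± 0.20, while UNC13D stood at −1.69 ± 0.56, RIMS1 at −0.94 ± 0.73 and RIMS2 at −1.88 ± 1.25. The median of these 5 was −0.94. In the synaptophysin family 1 of 5 rose, the synaptogyrin gene SYNGR3 (1.06 ± 0.32), and SYPL1 (−0.26), SYPL2 (−0.29), SYNGR1 (−0.54) and SYNGR2 (0.51) did not pass. YPEL2 rose by 1.23 ± 0.37, with YPEL3 at 1.19 ± 0.47 and YPEL5 at 0.67 ± 0.27. No other MAF gene passed of 4 tested, NRL, MAFF, MAFG and MAFK, which lay between −0.69 and 0.11. Of 7 calpain genes CAST, the calpain inhibitor calpastatin (0.56 ± 0.17), and the small subunit gene CAPNS1 (0.44 ± 0.10) rose, and CAPN15 fell by 0.57 ± 0.10. Many of these calls needed all 3 lines: of 39 calls among the other named genes, 18 were lost without SUM159, 18 without MDAMB231 and 24 without HCC1806. Of the same 39 calls 37 were lost with only the 6 libraries compared, 39 without the line as a block, 10 with no variance trend and 8 with no low-value filter.

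**Figure D4:**
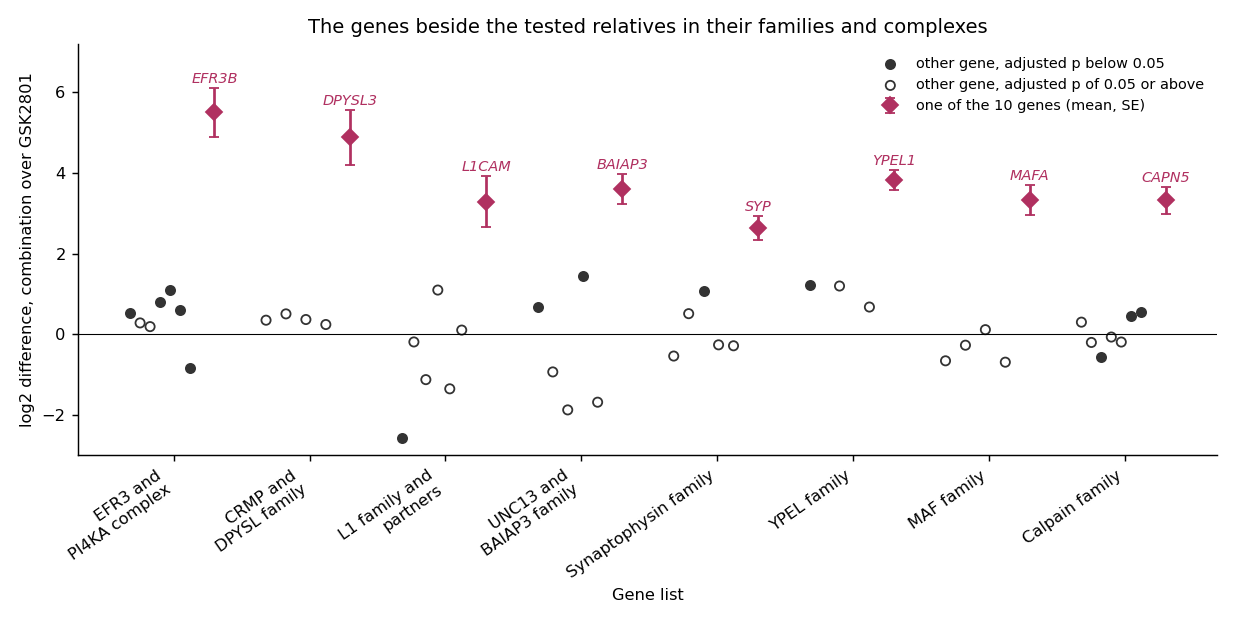
Log2 difference of the combination over GSK2801 for 8 of the 10 genes (diamonds, mean and SE) beside the other tested genes of their family or complex (circles, filled where the limma adjusted p is below 0.05). Each diamond lies above all circles of its column, the highest circle being UNC13B at 1.44, and ANK2 at −2.58 is the lowest. The columns list tested genes only, and the diamonds were picked as high.

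Broader neural lists are set beside the 11.8% of tested genes that were called higher and the 17.2% called lower in this comparison. Of 21 other synaptic vesicle and release genes 6 rose and 1 fell, with a list median of 0.56. SYT11 (1.92 ± 0.62), the vesicle GTPase gene RAB3A (1.47 ± 0.33) and UNC13B were the largest rises, and the calcium sensor gene SYT1 fell by 1.19 ± 0.37. Of 26 other neural adhesion and guidance genes 2 rose and 4 fell, with a median of −0.15, and these counts are below both shares. The netrin receptor gene UNC5B rose by 2.23 ± 0.68, whereas the semaphorin co-receptor genes NRP1 and NRP2 fell by 1.60 ± 0.51 and 0.97 ± 0.20, and their partner PLXNA2 fell by 1.49 ± 0.18. Of 7 neuroendocrine and secretory granule genes 2 rose, the granule peptide gene VGF (0.76 ± 0.20) and the neuronal enolase gene ENO2 (0.73 ± 0.21). Of 10 other REST targets 2 rose, TUBB3 and VGF again. REST itself stood at 0.04 ± 0.15, and of the 12 genes for it and its corepressors RCOR1 (0.57 ± 0.15) and RCOR3 (0.35 ± 0.10) rose and 0 fell.

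Genes that define neurons were mostly not measurable. Of 17 neuronal identity genes 12 had a mean below 10, and ELAVL4 and SLC32A1 were listed at 0 in all 12 libraries. RBFOX3, which encodes the neuronal nuclear antigen NeuN, did not exceed 8.20, MYT1L 3.01 and CAMK2A 1.14. Of the 5 tested, 1 rose and 0 fell, with a median of −0.02, beside 11.8% of all tested genes higher. The 1 was POU3F2, a neural transcription factor, at 1.96 ± 0.52. With GSK2801 it was near the limit of detection in SUM159 (4.37) and HCC1806 (3.52). Of 2 tested glial genes and 4 tested beta cell genes 0 passed, and the beta cell gene PDX1 stood at 0.66 ± 0.36 where MAFA stood at 3.33. PDX1 values went from 0 with GSK2801 to 0.94 with both in SUM159, and from 0 to 0.67 in MDAMB231. In HCC1806 they went from 31.6 to 38.4, so the mean difference of PDX1 rests largely on values near 0. Among 11 breast identity genes KRT8 rose by 1.13 ± 0.26 and EPCAM fell by 1.46 ± 0.41. Among 7 blood, endothelial and fibroblast genes COL1A1 fell by 1.04 ± 0.33 and 0 rose. The summed signal of that list spanned 216 to 49693 with DMSO, 167 to 20454 with JQ1, 180 to 41143 with GSK2801 and 138 to 10937 with both, where SUM159 had the high end through COL1A1. Within it PTPRC, a blood cell gene, stood at 422, 4.25, 60.4 and 2.83 in SUM159 with DMSO, JQ1, GSK2801 and both, and the endothelial gene PECAM1 at 730, 227, 1145 and 290, and both stayed below 10 in the other lines. CD3E, a T cell gene, was listed at 0 in 11 libraries and at 1.17 in the other. The part of these lists in the differences of the 10 genes was not tested.

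The profiles of the 10 genes over the 12 libraries were alike. Each gene was taken as log2(value + 1) minus its mean within the line and correlated with the mean of the other 9. Pearson r ran from 0.905 for SYP to 0.992 for CAPN5. This describes the choice, since all were picked for the same difference, and the libraries of a treatment share it. Of the other tested genes the closest to the mean profile was EIF4EBP2 (r = 0.996 over 12 libraries), which encodes a translation repressor, followed by CEP131 (0.995), the neuronal pentraxin receptor gene NPTXR (0.994), HEATR5A, SH3GLB2, GLCE, FNBP1, LRCH3, UNC13B (0.991) and JAK1 (0.990). Most of these had small steps of the same shape. EIF4EBP2 was 0.83 higher with JQ1 in the mean of the lines and JAK1 0.85, whereas NPTXR was 2.57 higher, with 2.18, 2.05 and 3.46 in SUM159, MDAMB231 and HCC1806.

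Most genes next to the 10 did not pass where the 10 did. Of the 20 nearest tested genes, 1 on each side by gene start, 3 rose and 0 fell in the combination against GSK2801, with a median of −0.08, beside 11.8% of all tested genes higher and a median of −0.10. ARHGAP4, which encodes a GTPase-activating protein and starts 48.8 kb from L1CAM, rose by 2.87 ± 0.61 (limma adjusted p = 0.0091). RHPN1 beside MAFA rose by 1.00 ± 0.33. TP53BP1 starts 0.23 kb from MAP1A, on the other strand, and stood at −0.08 ± 0.17. ARID4A starts 0.246 kb from C14orf37 as GENCODE v29 places it, and stood at −0.15 ± 0.11. The RefSeq promoter window of C14orf37 (58152214 to 58152463) lies well inside its GENCODE span (57999735 to 58298139). The annotations thus place its start differently, and this distance holds for GENCODE only.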

How the data were processed

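Each of the 12 deposited files held gene symbols and 1 normalised value per gene. Per the submitters' processing notes, the authors used STAR 2.4, Salmon 0.60 and the hg38 build. The annotation and the scaling step are not given in the sources used here, and the labels name KAPA Stranded and Illumina TruSeq kits. The deposited unit was taken as signal, since values were not whole and the upper quartile of values above 0 was 1664 in each library, and between 67.1% and 69.2% of values above 0 were whole multiples of 1 read's worth within 0.02. Estimated reads are values divided by that step. Of 28539 entries, 27 with symbols turned into dates were dropped.

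Log2(value + 1) of the 14232 genes with a mean of at least 10 was fitted with limma 3.58.1 (variance trend, R 4.3.3) with line as block and treatment, 6 residual and 3.02 prior degrees of freedom, Benjamini-Hochberg adjustment over all tested genes and a threshold of 0.05. Replicate numbers pair libraries by cell line: libraries of the same line correlated at 0.935 to 0.993 and those of different lines at 0.685 to 0.810. P-values measure the spread between lines. Each line's response to JQ1 enters both of its JQ1-treated libraries, so p-values for JQ1 may be too small.

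The 10 genes and all lists were chosen with earlier results of these data known. Named are all 10 genes, tested relatives, up to 4 of each other list that passed with the combination against GSK2801, the 10 most alike genes and the nearest tested neighbours (GENCODE v29). Some genes that this rule names are counted but not reported here. Comparisons with DMSO that chose the genes carry no test. Alternatives were the pseudocount, filter, scaling, variance trend, block and the libraries included.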

Additional observations from a re-analysis of the deposited data

Results flagged for a closer look

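Of the 10 genes, 3 had effects of GSK2801 with opposite signs in the lines, each beyond 0.25 on the log2 scale. The difference between lines was not tested, since each rests on 1 library per line and treatment. L1CAM was lower with the combination than with JQ1 in HCC1806 (−0.56) and higher in SUM159 (1.02) and MDAMB231 (0.33). DPYSL3 was lower with GSK2801 than with DMSO in HCC1806 (−0.47) and higher in SUM159 (1.17). C14orf37 was lower with GSK2801 than with DMSO in SUM159 (−0.34) and higher in MDAMB231 (0.32). Groups of 3 libraries were not searched for samples that stand apart.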

How the results depend on the processing

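The alternatives kept 0 called genes of the 10 for GSK2801 alone and for the departure from additivity. For the combination against JQ1 the count was also 0, except where each line had its own JQ1 effect, with 4 called (871 of all tested genes). For the combination against GSK2801 all 10 passed in 9 alternatives (both pseudocounts, no filter, both scalings, no variance trend, and each line left out). They also passed with any 1 of the 12 libraries left out, an alternative chosen after seeing the data. All these passes carry the limit that the genes were picked for their rise with JQ1. The count was 9 with only the 6 libraries compared (SYP, limma adjusted p = 0.0508), 9 of 9 with a mean of at least 50, which drops SYP, and 0 with no replicate block. Over all tested genes 4132 were called, 300 with only the 6 libraries, 3 with no replicate block, and 2496, 2522 and 1939 without SUM159, MDAMB231 and HCC1806. The split of 1684 higher and 2448 lower became 2067 and 1878 after quantile normalization and 2071 and 1993 after median-of-ratios rescaling. The 2 median rises kept their size within the spread between lines under each alternative.

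Signs of small differences that did not pass turned with a line left out. The range over these 3 fits was −0.11 to 0.68 for L1CAM with the combination against JQ1. For GSK2801 against DMSO it was −0.068 to 0.75 for DPYSL3, −0.27 to 0.041 for YPEL1 and −0.14 to 0.19 for C14orf37. For the departure from additivity it was −1.27 to 0.21 for EFR3B, −0.12 to 0.35 for DPYSL3 and −0.34 to 0.68 for MAFA. With a pseudocount of 10 the departure of EFR3B was 0.058. The cause was not tested. Genes with 1 to 10 estimated reads in DMSO limit the precision of their folds, and a line with 1 library per treatment allows no test of its own.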
